A study of Mus musculus with 6 samples.

Results

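V1R receptors are the pheromone receptors of one class of sensory neurons in the vomeronasal organ, the chemosensory organ in the nasal septum of the mouse. The 49 genes described here are those whose platform symbol is Vmn1r followed only by a number, from Vmn1r186 upward, and which had a probe set naming no other gene. They are 49 of 22180 genes measured on whole-transcript arrays, where each gene is represented by its brightest such probe set. The arrays compared vomeronasal organs of AP-2e null mice (3 arrays) with those of wild-type mice (3 arrays), all at postnatal day 17, to find the genes that differ between the genotypes. Total RNA of the whole organ was labelled with biotin. The sources used here give neither the design of the null allele nor the strain, the sex or the number of animals per array. The samples are called biological replicates by their titles, and p-values measure the spread between these samples.

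V1Rs are G protein-coupled receptors with a single coding exon, and they detect small molecules such as sulfated steroids. They are made by the apical vomeronasal neurons, which signal through the G protein subunit Gnai2 and the channel Trpc2, and a given neuron is thought to make a single V1R. V2R receptors and the subunit Gnao1 mark the basal neurons instead. AP-2e, the product of Tfap2e, is a transcription factor of the basal neurons, so V1R genes belong to the neurons that normally do not make it. Older names sort V1Rs into lettered families, of which V1re, V1rf, V1rh and V1ri occur here.

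RefSeq (assembly GRCm38.p6) places all but 2 of the 49 genes in 2 long runs. Chromosome 13 holds 33 of them, Vmn1r188 to Vmn1r223, most with V1rh or V1ri names. Chromosome 17 holds 14, where Vmn1r224 to Vmn1r232 mostly carry V1re names and Vmn1r233 to Vmn1r237 carry V1rf names. The exceptions are Vmn1r238 and Vmn1r257. The reference lists 74 symbols from Vmn1r186 upward, and 24 of these occur only on probe sets shared with other genes.

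The first 50 coding bases show how alike the genes are at the start of the coding region. They are given 5′ to 3′ with the start codon in capitals, from RefSeq windows of build GRCm38.p6. In the genes shown first, of which Vmn1r224 has no older name, other capitals mark bases that differ from Vmn1r226 at the same position. Vmn1r226 is at chr17:20687508-20687557 (+), Vmn1r227 at chr17:20735206-20735255 (+), Vmn1r225 at chr17:20502299-20502348 (+) and Vmn1r224 at chr17:20419163-20419212 (+).
Vmn1r226: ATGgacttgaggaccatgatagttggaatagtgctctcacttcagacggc
Vmn1r227: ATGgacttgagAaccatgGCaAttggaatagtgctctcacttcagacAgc
Vmn1r225: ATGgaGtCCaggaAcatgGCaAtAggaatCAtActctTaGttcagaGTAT
Vmn1r224: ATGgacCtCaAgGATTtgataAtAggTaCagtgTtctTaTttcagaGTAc
Vmn1r227 differed from Vmn1r226 at 5 of the 50 bases, and Vmn1r225 and Vmn1r224 at 17 each. The V1rf genes Vmn1r237 (chr17:21314017-21314066, +) and Vmn1r233 (chr17:20994637-20994686, -) start differently and are shown without a comparison.
Vmn1r237: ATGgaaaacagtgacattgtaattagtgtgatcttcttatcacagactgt
Vmn1r233: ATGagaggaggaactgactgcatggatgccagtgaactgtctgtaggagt
On chromosome 13, a subset of V1rh genes starts much like Vmn1r188, and here the capitals after the start codon mark differences from it. Other V1rh genes are less like it, such as Vmn1r199 with 15 of the 50 bases the same. Vmn1r188 is at chr13:22087878-22087927 (+), Vmn1r222 at chr13:23232992-23233041 (-), Vmn1r219 at chr13:23162643-23162692 (+), Vmn1r217 at chr13:23114681-23114730 (-) and Vmn1r220 at chr13:23184475-23184524 (-).
Vmn1r188: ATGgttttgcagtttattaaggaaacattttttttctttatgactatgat
Vmn1r222: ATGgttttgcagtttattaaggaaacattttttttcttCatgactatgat
Vmn1r219: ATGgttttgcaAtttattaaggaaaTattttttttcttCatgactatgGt
Vmn1r217: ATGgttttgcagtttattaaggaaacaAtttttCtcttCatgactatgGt
Vmn1r220: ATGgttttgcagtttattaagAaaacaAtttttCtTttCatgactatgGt
Vmn1r222 differed from Vmn1r188 at 1 of 50 bases, Vmn1r219 and Vmn1r217 at 4 each and Vmn1r220 at 6. Where transcripts are alike, probes can bind more than 1 of them. Only these 50 bases were compared and no probe sequences were at hand, so this could not be checked. The value of a single V1R gene therefore remains uncertain.

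Values are log2 signals, and a positive log2 difference means a higher mean in AP-2e null than in wild-type organs. Array medians ranged between 4.997 and 5.079, and r between arrays between 0.971 and 0.985 across probe sets, which are not independent. AP-2e null replicate 1 had an Xist signal of 10.64, against 3.55 to 3.58 on the other 5 arrays, so it stands apart in a gene that marks female tissue. No wild-type array had such a signal, so it was not balanced between the genotypes. Its part in the differences was not tested. Tfap2e, the targeted gene, averaged 6.03 ± 0.06 in AP-2e null and 6.71 ± 0.23 in wild-type organs (SD, n = 3 each), with no overlap. Its adjusted p in limma was 0.431, and the sources used here do not say whether the allele leaves its probes intact. Over all genes, 0.225% passed an adjusted p under 0.05 (limma, Benjamini-Hochberg over all 22180 genes), with 48 of the 50 lower. The number of arrays limits the precision.

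None of the 49 V1R genes passed that threshold as higher, as 0.00902% of all genes did, or as lower, as 0.216% did. Their smallest adjusted p in limma was 0.873. At an unadjusted p under 0.05 there were 6 higher genes, which is 12.2% of the members against 1.9% of all genes, and 0 lower genes, against 2.49% of all genes. That count depended on single arrays. With an array left out, the members at this p in either direction numbered 0 without AP-2e null replicate 1, 1 without null replicate 2 and 3 without null replicate 3. They numbered 12 without wild-type replicate 1, 4 without the second wild-type array and 7 without the third. Median centring and array weights gave 3 each, and the ordinary linear model without shared variance gave 0. Over all genes, 975 had such a p with all arrays. Without AP-2e null replicates 1, 2 and 3 they numbered 969, 780 and 1002. Without wild-type replicates 1, 2 and 3 they numbered 966, 1190 and 1466. Median centring gave 1082 of all genes, array weights 1350 and the ordinary linear model 634. The 6 higher members found with all arrays lie on chromosome 17. The 3 AP-2e null arrays lay above all 3 wild-type arrays for 7 members (14.3%, against 3.42% of all genes) and below them for 0 (against 3.64%). The mean was higher in AP-2e null organs for 40 members (81.6%) and lower for 9, where 49.4% of all genes were higher. The median difference of the members was 0.21, and that of all genes was 0.00. The other 127 measured V1R genes were alike in this, with 102 higher and a median of 0.23. Among them, 21 were higher and 0 lower at an unadjusted p under 0.05 in limma. Their arrays did not overlap for 25 higher genes and 1 lower gene. Chromosome 7, with 73 of these genes, held 14 of the 21 and 18 of the 25.

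**Figure D1:**
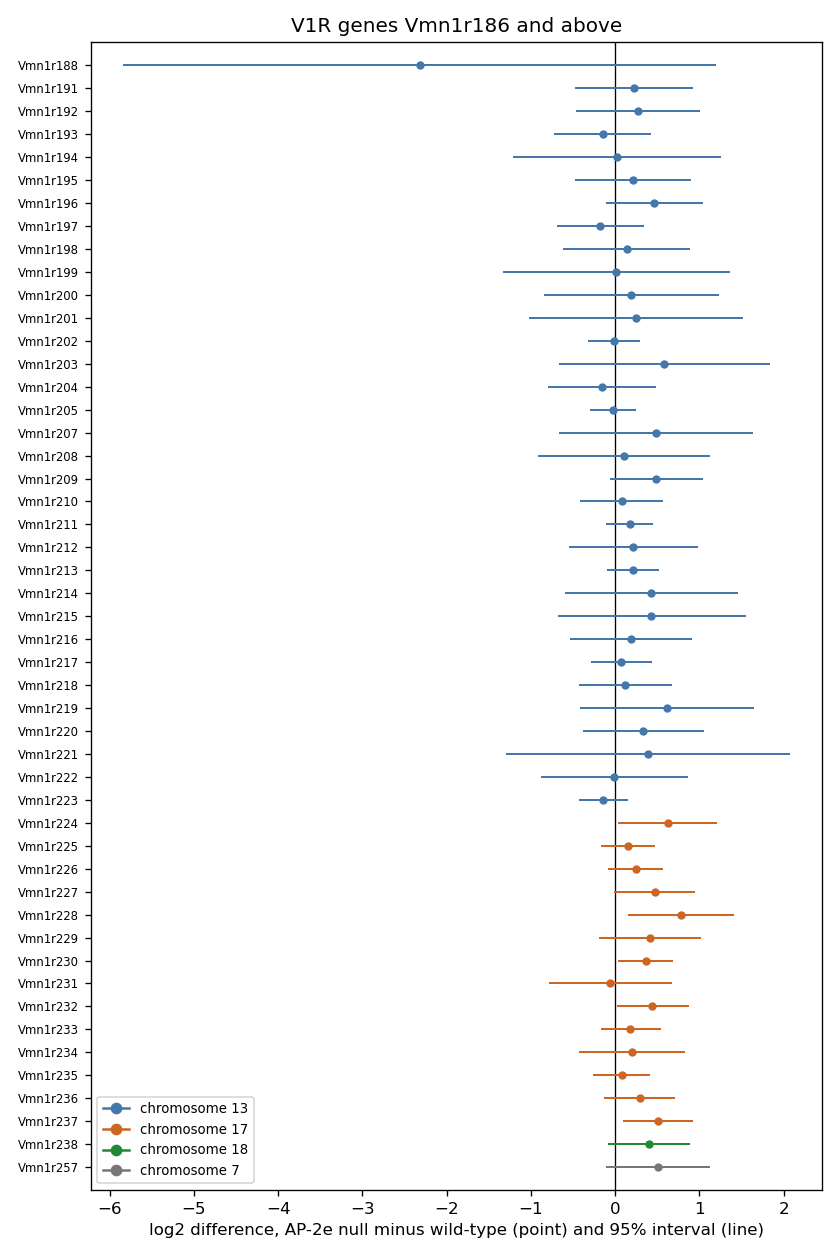
Each row is a V1R gene. The point is its log2 difference, AP-2e null minus wild-type, and the line is the 95% interval from limma, coloured by chromosome. The interval lies above 0 for 6 genes, all of them on chromosome 17, and Vmn1r188 at the top has the widest one.

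The size of change that the arrays could show differed from gene to gene. The 95% intervals were between 0.52 and 7.01 wide, with a median of 1.22, and 43 of the 49 contained 0. Both group means lay under 3.62, the lower quartile of all values, for 9 members, so the differences of those genes may lie in background signal. These 9 were Vmn1r192, Vmn1r200, Vmn1r201, Vmn1r204, Vmn1r205, Vmn1r212, Vmn1r216, Vmn1r222 and Vmn1r257. The spread within a genotype was also unequal. The median SD of the members was 0.16 over AP-2e null and 0.45 over wild-type arrays, against 0.11 and 0.13 for all genes.

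Many members were low on the same wild-type array. Wild-type replicate 2 was the lowest of the 6 arrays for 35 of the 49 members (71.4%), against 18.7% of all genes. The median member stood 0.63 lower there than on the mean of wild-type replicates 1 and 3, and the same value was -0.48 for the other V1R genes and -0.01 for all genes. Of 7 apical neuron markers, 4 were also lowest on this array, as 2 examples show. Gnai2 measured 10.52 there against 10.79 and 10.67 on wild-type replicates 1 and 3, and Gng2, a G protein gamma subunit, measured 7.26 against 7.63 and 7.54. Meis2, another apical marker, was higher there, at 10.67 against 10.46 and 10.37. The median of the 7 apical markers stood 0.13 lower there than on the mean of the other wild-type arrays, that of 5 basal neuron markers 0.23 lower and that of 8 general vomeronasal neuron markers 0.09 lower. In bulk tissue, fewer cells of a type and less RNA per cell cannot be told apart. The part of these values in the V1R differences was not tested.

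**Figure D2:**
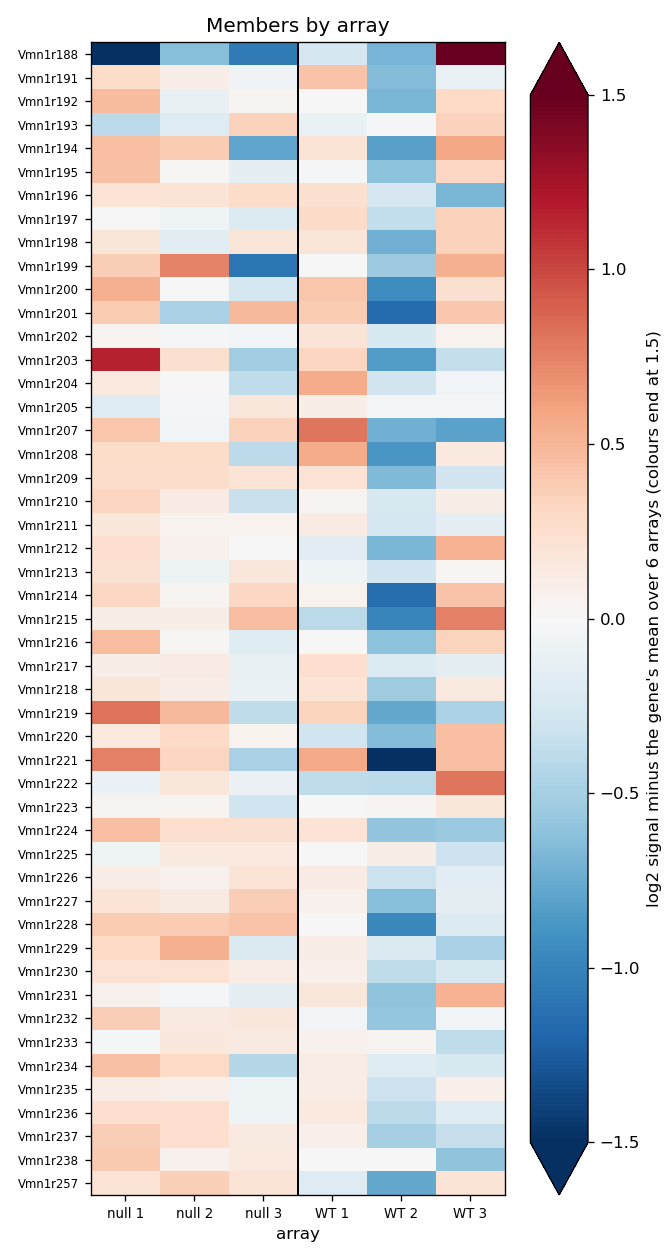
Rows are the V1R genes and columns the 3 AP-2e null (null) and 3 wild-type (WT) arrays. Colour is the log2 signal minus the mean of that gene over the 6 arrays, red above and blue below. The WT 2 column is blue for most genes, and the lower rows, from Vmn1r224 to Vmn1r237, are mostly red in all 3 null columns.

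The chromosomes differed once that array was left out. Without wild-type replicate 2, the median difference of the 33 chromosome 13 genes was -0.06, against 0.19 with all arrays, and 9 of them were higher instead of 25. For the 14 chromosome 17 genes the median was 0.25 without it and 0.32 with all arrays, and 12 were higher instead of 13. For the V1R genes below Vmn1r186, the medians without this array were 0.05 for the 51 genes on chromosome 6 and 0.04 for the 73 on chromosome 7. Over the whole list of 49 it was -0.02, with 23 higher. Leaving out any other single array kept both medians above 0, between 0.06 and 0.30 on chromosome 13 and between 0.26 and 0.46 on chromosome 17. Wild-type replicate 2 was singled out because most members were lowest on it, so a fall of the medians without it was built in. The difference between the chromosomes was not tested.

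**Figure D3:**
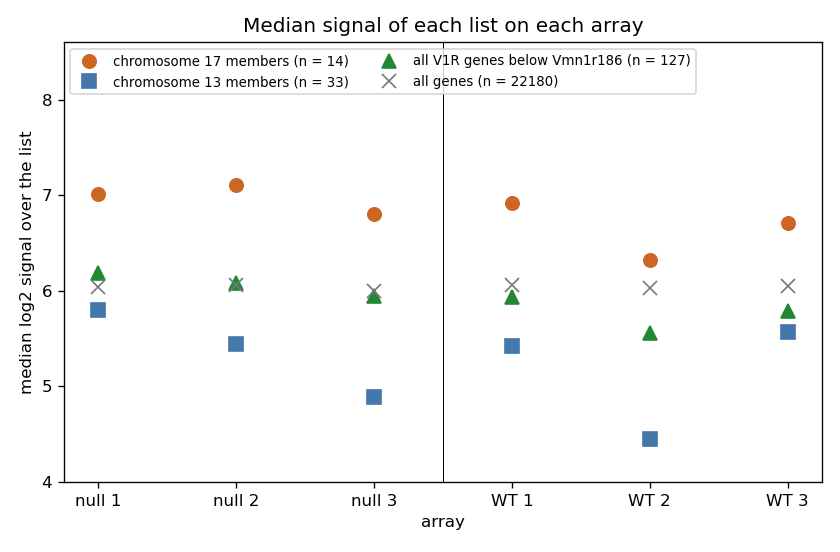
The vertical axis is the median log2 signal over a list of genes, and the horizontal axis the 3 AP-2e null (null) and 3 wild-type (WT) arrays. The chromosome 13 median falls to 4.45 on WT 2, and the chromosome 17 median is 6.32 there, while the median of all genes stays between 6.0 and 6.06. Levels of different lists come from different probe sets and are not comparable with each other.

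The chromosome 17 genes were the part of the list where signals were higher in AP-2e null organs on most arrays. Vmn1r228 (V1re3) had the largest difference among them. It measured 7.50, 7.50 and 7.55 on AP-2e null arrays, against 7.12, 6.16 and 6.92 on wild-type arrays. The groups did not overlap, and the difference was 0.78 or 1.72-fold (95% interval 0.16 to 1.40, unadjusted p = 0.0222 and adjusted p = 0.873 in limma). Without wild-type replicate 2 it was 0.50.

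Vmn1r237 (V1rf3) had the smallest p of the list. Its signals were 9.30, 9.19 and 9.07 in AP-2e null organs, against 9.01, 8.44 and 8.59 in wild-type organs. All null arrays stood above all wild-type arrays, by 0.51 on average or 1.42-fold (interval 0.11 to 0.91, unadjusted p = 0.0220 and adjusted p = 0.873 in limma). Vmn1r224, at the start of the run, measured 8.36, 8.16 and 8.15 in AP-2e null organs, against 8.12, 7.32 and 7.36 in wild-type organs. Here the lowest null array exceeded the highest wild-type array by little, and the difference of 0.63 (interval 0.05 to 1.2) came mainly from wild-type replicates 2 and 3.

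Vmn1r230 (V1re8) stood at 9.16, 9.16 and 9.06 on AP-2e null arrays and at 9.03, 8.57 and 8.71 on wild-type arrays. Its null values were close to each other and just above wild-type replicate 1, for a difference of 0.36 (interval 0.04 to 0.67). Vmn1r232 (V1re4) measured 6.33, 6.10 and 6.13 in AP-2e null organs, against 5.92, 5.39 and 5.92 in wild-type organs, a difference of 0.44 (interval 0.03 to 0.86). Vmn1r227 (V1re6) measured 5.48, 5.41 and 5.64 in AP-2e null organs, against 5.34, 4.64 and 5.13 in wild-type organs, a difference of 0.47 (unadjusted p = 0.0499 in limma). For both genes the groups did not overlap, and wild-type replicate 2 was the lowest array. Without it, the difference was 0.27 for each. None of the 6 genes passed in any alternative setting.

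**Figure D4:**
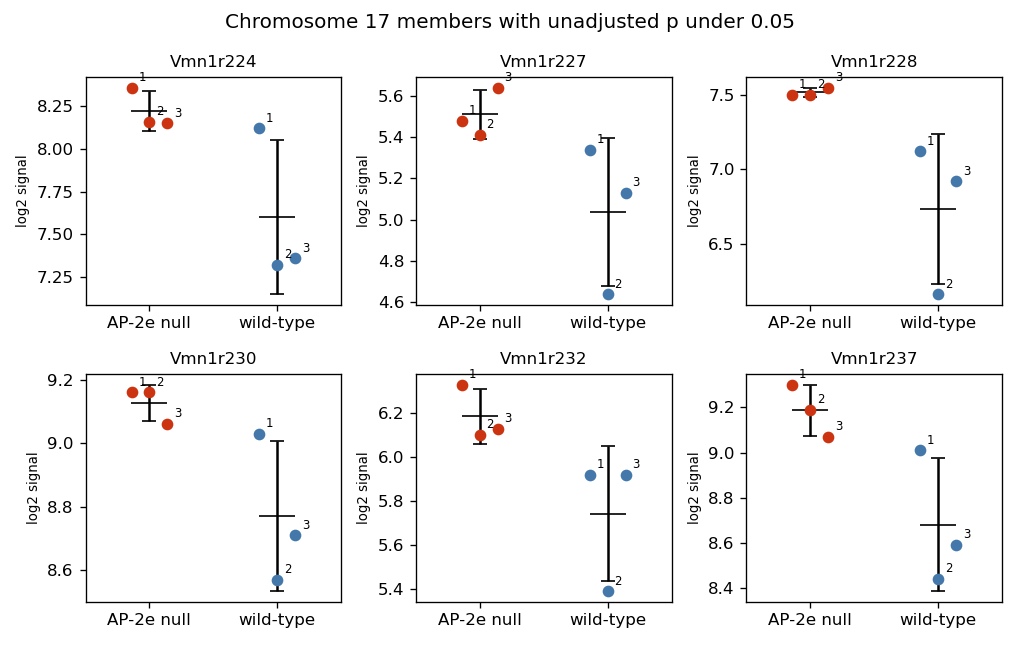
Each panel is 1 chromosome 17 gene with an unadjusted p under 0.05. Points are arrays with their replicate number, the horizontal bar is the group mean and the error bar is 1 SD (n = 3 each); the vertical axis is log2 signal and does not start at 0. The AP-2e null points lie above all wild-type points in every panel, and wild-type replicate 2 is the lowest point in each.

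The other 8 genes of the run overlapped between the genotypes. Vmn1r233 (V1rf5), whose probe set was the brightest of the list, measured 11.75, 11.94 and 11.91 in AP-2e null organs, against 11.84, 11.82 and 11.40 in wild-type organs. Its difference of 0.18 (interval -0.16 to 0.53) was 0.04 without wild-type replicate 3. A second probe set of Vmn1r233, at means of 8.48 in AP-2e null and 8.25 in wild-type organs, gave 0.23. Vmn1r225, Vmn1r226, Vmn1r229, Vmn1r234, Vmn1r235 and Vmn1r236 had differences between 0.08 and 0.41. Vmn1r231 was the only chromosome 17 member with a lower null mean. It measured 6.31, 6.22 and 6.11 in AP-2e null organs, against 6.41, 5.64 and 6.77 in wild-type organs, so the wild-type arrays lay on both sides of the null arrays. Its difference was -0.06 (interval -0.77 to 0.66).

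On chromosome 17, Vmn1r224 and Vmn1r225 lie between V2R genes, which gives a comparison within a short stretch of the genome. No measured V2R gene lies among the other members, Vmn1r226 to Vmn1r237, and genes past Vmn1r237 were not looked at. The V2R genes on the side that was looked at, Vmn2r101 to Vmn2r110, are genes of the basal neurons. All 10 were lower in AP-2e null organs, with a median of -2.31. Of these, 3 passed the threshold over all genes, which 0.216% of all genes did in this direction. Vmn2r107 and Vmn2r108 flank Vmn1r224. Vmn2r107 fell to 2.97, 2.91 and 2.0 in AP-2e null organs, against 6.31, 6.21 and 5.92 in wild-type organs, a difference of -3.52 (adjusted p = 0.0168 in limma). Vmn2r108 measured 3.62, 2.74 and 3.06 in AP-2e null organs, against 5.85, 4.87 and 6.68 in wild-type organs, a difference of -2.66 that did not pass (adjusted p = 0.431). Vmn1r224, between them, had a difference of 0.63, and each of these 3 genes separated the genotypes without overlap. Vmn1r225, between Vmn2r108 and Vmn2r109, had a difference of 0.15 (interval -0.16 to 0.46).

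The other neighbours in this stretch had small differences. Fpr-rs3 and Fpr-rs6 code for formyl peptide receptors, a further group of vomeronasal chemoreceptors. Fpr-rs3 measured 6.94, 6.92 and 6.87 in AP-2e null organs, against 7.09, 6.19 and 6.58 in wild-type organs, a difference of 0.29 that did not pass. Fpr-rs6 had a difference of 0.37 (interval -0.94 to 1.68). Both were lowest on wild-type replicate 2, as were 10 of the 14 V1R genes of chromosome 17. Ppp2r1a, a subunit of protein phosphatase PP2A that lies between Vmn1r232 and Vmn1r233, had a difference of 0.06 (interval -0.10 to 0.23).

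**Figure D5:**
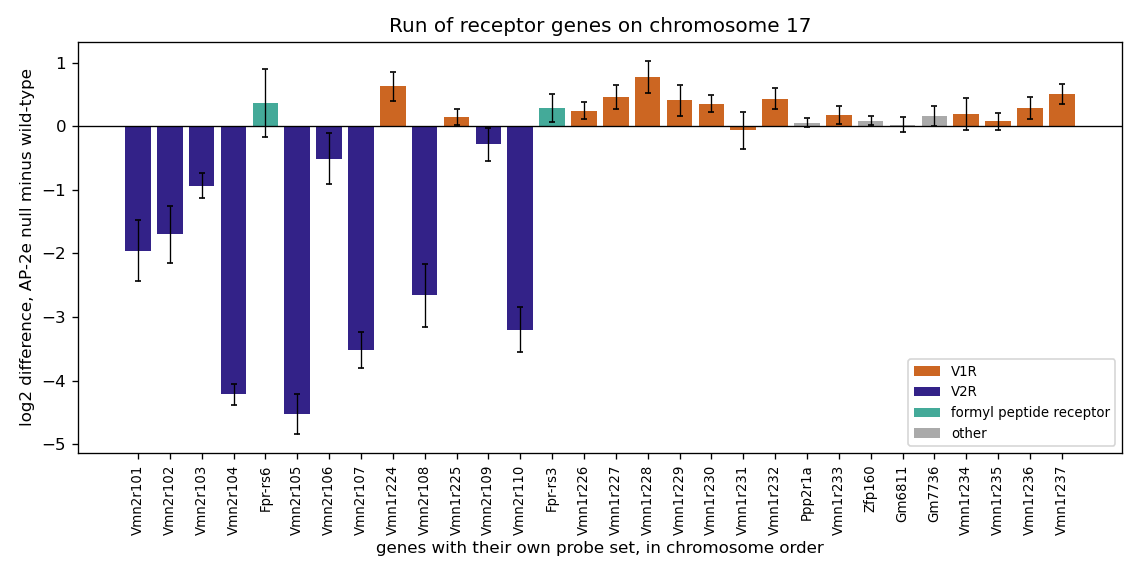
Bars are log2 differences, AP-2e null minus wild-type, of genes with their own probe set in chromosome order, and error bars are the SE of the limma fit (3 arrays per genotype). The V2R bars are all below 0, down to -4.53 for Vmn2r105, and the V1R bars lie between -0.06 and 0.78, also where they stand between V2R genes.

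On chromosome 13 the members varied more between arrays. None of the 33 genes had an unadjusted p under 0.05, where 1.9% of all genes were higher and 2.49% lower. None had groups that did not overlap, where 3.42% and 3.64% of all genes did. Both counts are near these shares. Genes with V1rh names (18) had a median difference of 0.18 and those with V1ri names (9) of 0.19. Without wild-type replicate 2 these medians were -0.04 and -0.12, with 6 and 1 genes higher. Wild-type replicate 2 was the lowest array for 13 of the 18 V1rh and 8 of the 9 V1ri genes. It was singled out because most members were lowest on it, so a fall of these medians without it was built in. The other arrays were not left out in turn for these families.

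The smallest p on chromosome 13 was that of Vmn1r209. It measured 6.36, 6.36 and 6.30 on AP-2e null arrays, against 6.31, 5.43 and 5.81 on wild-type arrays. The null arrays lay close together and wild-type replicate 1 stood among them, so the difference of 0.49 (interval -0.05 to 1.03) rests on the other wild-type arrays and was 0.28 without replicate 2. Vmn1r196 (V1rh19) was alike, with 9.04, 9.04 and 9.10 in AP-2e null organs against 9.07, 8.58 and 8.15 in wild-type organs, a difference of 0.46 (interval -0.10 to 1.03) that was 0.24 without wild-type replicate 3.

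The other bright probe sets of chromosome 13 had differences near 0. Vmn1r202 (V1ri7) measured 8.63, 8.56 and 8.54 in AP-2e null organs, against 8.78, 8.35 and 8.64 in wild-type organs, and its difference was -0.02 (interval -0.31 to 0.28). Vmn1r217 (V1rh14) measured 8.44, 8.47 and 8.24 in AP-2e null organs, against 8.6, 8.14 and 8.21 in wild-type organs, and its difference was 0.07 (interval -0.28 to 0.42). These intervals were among the narrower ones of the list. Vmn1r218 (V1ri5) measured 9.01, 8.93 and 8.73 in AP-2e null organs, against 9.03, 8.30 and 8.98 in wild-type organs. Only wild-type replicate 2 was low there, and without it the difference of 0.12 became -0.12.

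Several chromosome 13 genes had wide ranges within a genotype. Vmn1r221 was the clearest case for wild-type replicate 2. It measured 5.88, 5.44 and 4.63 in AP-2e null organs, against 5.69, 3.51 and 5.57 in wild-type organs, and its difference of 0.39 became -0.31 without that array. Vmn1r203 (V1rh11) measured 6.25, 5.34 and 4.57 in AP-2e null organs, against 5.42, 4.26 and 4.74 in wild-type organs, a difference of 0.58 (interval -0.66 to 1.82) that was 0.15 without AP-2e null replicate 1 and 0.99 without AP-2e null replicate 3. Vmn1r199 (V1rh4) measured 5.27, 5.64 and 3.82 in AP-2e null organs, against 4.89, 4.36 and 5.43 in wild-type organs, a difference of 0.01 (interval -1.32 to 1.35). In these 3 genes the arrays of a genotype differed from each other by more than the genotypes did.

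Lower null means occurred for 8 chromosome 13 genes. Vmn1r188 (V1rh17) had the largest of these differences, and it came from 1 array. Its signals were 2.12, 3.29 and 2.88 in AP-2e null organs, against 3.68, 3.23 and 8.36 in wild-type organs. Wild-type replicate 3 stood 4.67 above the next highest array, and without it the difference of -2.32 (interval -5.83 to 1.18) became -0.69. A gap as large between the highest and the next array occurred for 4 of 22180 genes, the others being Xist, Col10a1 and Dcpp3, named here after their values were seen. Vmn1r188 was the only V1R gene with a gap over 2, which 40 of 22180 genes had, 19 of them highest on wild-type replicate 3. On its other arrays it lay between 2.12 and 3.68, mostly under the lower quartile of all values, 3.62. Vmn1r222, which differs from Vmn1r188 at 1 of the first 50 coding bases shown above, was also highest on wild-type replicate 3. It measured 2.88, 3.14 and 2.88 in AP-2e null organs, against 2.59, 2.56 and 3.77 in wild-type organs. Both means of Vmn1r222 lay under 3.62, so its values may lie in background signal.

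The remaining lower genes had small differences. Vmn1r223 measured 6.06, 6.06 and 5.72 in AP-2e null organs, against 6.01, 6.06 and 6.18 in wild-type organs, a difference of -0.14 (interval -0.42 to 0.14) that was -0.02 without AP-2e null replicate 3. Vmn1r197 (V1rh21) measured 6.69, 6.63 and 6.49 in AP-2e null organs, against 6.98, 6.33 and 7.04 in wild-type organs, a difference of -0.18 (interval -0.68 to 0.33) that lay between -0.40 and -0.05 with an array left out. Vmn1r193 (V1ri9) measured 4.96, 5.16 and 5.70 in AP-2e null organs, against 5.25, 5.33 and 5.70 in wild-type organs, a difference of -0.15. The groups overlapped in each of these genes. Vmn1r204 and Vmn1r205 were dim in both genotypes. Vmn1r204 measured 3.15, 3.01 and 2.63 in AP-2e null organs, against 3.57, 2.72 and 2.97 in wild-type organs, and Vmn1r205 lay between 1.75 and 2.11 on all arrays.

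The single members on other chromosomes were both higher in AP-2e null organs without passing. Vmn1r238 on chromosome 18 measured 5.65, 5.32 and 5.41 in AP-2e null organs, against 5.26, 5.26 and 4.66 in wild-type organs. It was the only gene outside chromosome 17 whose groups did not overlap, with a difference of 0.40 (interval -0.07 to 0.88), and here wild-type replicate 3 was the low array, without which the difference was 0.21. Vmn1r257 on chromosome 7 measured 3.49, 3.65 and 3.49 in AP-2e null organs, against 3.10, 2.52 and 3.49 in wild-type organs.

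Probe sets shared between V1R genes gave values for symbols that had none of their own. There were 38 such probe sets, each naming between 2 and 20 genes, at least 1 of them from Vmn1r186 upward. All 38 had higher means in AP-2e null organs, with differences between 0.06 and 0.45 and a median of 0.22. Wild-type replicate 2 was the lowest array on all 38. These probe sets share genes, so they are not independent of each other. For Vmn1r208 the probe set used gave 0.11 and a dimmer one 0.45, and for Vmn1r212 they gave 0.21 and 0.16.

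A list of 25 genes held those through which V1R neurons signal and are recognised, together with Tfap2e and Gnao1 of the basal neurons. Of the 23 measured, none passed in either direction, as 0.225% of all genes did. At an unadjusted p under 0.05, 3 were higher and 4 were lower, Tfap2e and Gnao1 among the lower ones, where 1.9% and 2.49% of all genes were. The higher ones were Rtp1, which helps receptors reach the cell surface, Gng2 and Meis2, a transcription factor of apical neurons. Rtp1 measured 10.97, 10.82 and 10.97 in AP-2e null organs, against 10.59, 10.40 and 10.45 in wild-type organs, a difference of 0.44 (adjusted p = 0.370 in limma). Gng2 had a difference of 0.36 and Meis2 of 0.26, each with an adjusted p of 0.873 in limma. Gnai2, the G protein subunit to which V1Rs couple, measured 10.84, 10.70 and 10.79 in AP-2e null organs, against 10.79, 10.52 and 10.67 in wild-type organs, and its interval was -0.11 to 0.33.

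The lower ones were Tfap2e, Gnao1, the chloride channel Ano2 at -0.40 and Kirrel2 at -0.35. Kirrel2 is an adhesion gene and, like Meis2 and Gng2, an apical marker, and it is named after its value was seen. Of the 7 apical markers, 4 were higher and 3 lower in AP-2e null organs, with a median difference of 0.08. Gnao1, the subunit of the basal neurons, measured 9.79, 9.88 and 9.90 in AP-2e null organs, against 10.45, 10.38 and 10.77 in wild-type organs, a difference of -0.68 (adjusted p = 0.331 in limma). Of the 5 basal markers, 4 were lower and 1, Gng8, was higher at 0.06, with a median difference of -0.50. The 4 lower ones had an unadjusted p under 0.05 in limma, where 2.49% of all genes were lower, and none passed. Omp, the marker of mature sensory neurons, and Trpc2 had intervals of -0.89 to 0.07 and -0.33 to 0.24. All markers of apical neurons, basal neurons and mature vomeronasal neurons had a mean above the lower quartile in at least 1 genotype. So did every measured marker of the other cell types looked at, cartilage and skeletal muscle among them. This cut therefore does not tell the labelled tissue from others. Among other cell types, main olfactory neuron markers had a list mean between 6.61 and 7.74 on AP-2e null arrays and between 6.17 and 8.0 on wild-type arrays. Sustentacular cell markers lay between 5.88 and 7.21 on AP-2e null arrays and between 5.6 and 7.42 on wild-type arrays. Both lists were highest on wild-type replicate 2, the array on which most V1R genes were lowest, and lowest on wild-type replicate 1. On AP-2e null replicates 2 and 3 the olfactory neuron means were 7.7 and 7.74 and the sustentacular means 7.21 and 7.01. Those 2 arrays were the lowest for 0 and 5 of the 49 members. Cartilage genes averaged 8.01 on the second AP-2e null array, against 5.43 to 5.82 elsewhere. Neutrophil genes were higher in AP-2e null organs for 6 of 6, with a median difference of 0.57, and their list mean lay between 7.67 and 8.01 on AP-2e null arrays and between 6.78 and 7.88 on wild-type arrays. Multiciliated cell genes were lower for 5 of 5 measured, with a median of -0.30, and their list mean lay between 7.92 and 8.15 on AP-2e null arrays and between 7.94 and 8.55 on wild-type arrays. No gene of these lists passed the threshold in limma. Their part in the V1R differences was not tested.

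The sequence before the coding start held neither of the motifs searched for. RefSeq windows of 250 bases before to 50 after the annotated start were given for 43 of the 49 genes. In 38 of these the annotated start is the start codon, so the windows mostly cover the sequence just before the coding region rather than a mapped promoter. An AP-2 motif (GCCNNNGGC, the same on both strands) occurred in 0 of the 43 member windows. It occurred in 0 of 140 windows of other V1R genes, in 7.69% of 117 V2R windows and in 16.6% of all 32851 windows. An Olf1/EBF motif (TCCC and GGGA with any 2 bases between them, the same on both strands), named for a factor of olfactory neurons, occurred in 0 of the 43, 0 of the 140 other V1R and 0 of the 117 V2R windows and in 0.904% of all windows, so its count in the members is near that share. The member windows had a median GC content of 35.7%, against 36.0% for the other V1R, 38.0% for the V2R and 52.7% for all windows. The fixed bases of the AP-2 motif are all G or C, so its share over all windows is not a like comparison for the members. Over the 38 windows whose annotated start is the start codon, the most alike pair was Vmn1r188 and Vmn1r222 with 95% identity by edit distance, and their differences were -2.32 and -0.01. Vmn1r207 and Vmn1r209 had 94.3% identity and differences of 0.48 and 0.49. These pairs are the most alike and do not stand for their families. The 16 V1rh windows were between 44.3% and 95% identical, with a median of 53.9%. Those of Vmn1r225, Vmn1r226, Vmn1r227 and Vmn1r231, all with V1re names, were between 49% and 66% identical, with a median of 56.5%.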

How the data were processed

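The deposited table holds log2 signals per probe set and array. RMA, a method of background correction, quantile normalization and probe summary, and the Transcriptome Analysis Console are named per the submitters' processing notes, with no version or build. Per the labels' protocols, target was made from 100 ng of total RNA. Of 41345 probe sets, 23521 named 1 gene, 1814 several and 16010 none. Each gene was represented by its brightest 1-gene probe set, by mean signal (22180 genes, no filter on low values). All 49 members matched RefSeq (GRCm38.p6) by Entrez identifier, which gave chromosomes, order and older names.

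The genotype comparison used lmFit and eBayes of limma 3.58.1 under R 4.3.3 (2-sided, no covariate), adjusted by Benjamini-Hochberg over all genes, with the 3 arrays per genotype as replicates. The fit was tested on simulated data of 22180 genes with 3 arrays per genotype. There, 82 of 100 genes changed by 1 on the log2 scale and 94 of 100 changed by 2 were called. Of 21980 unchanged genes, 8 were called. The simulated noise was independent between genes, so it held no array on which V1R genes were low together. The median SE was 0.24 for the members and 0.1 for all genes, so these shares do not describe the members. Members, lists and groupings were chosen with earlier results of these data known. Per-array values were given for the 8 brightest members, the 8 higher and 8 lower ones with the smallest p, and the 4 with the widest range. Alternatives were other variance moderation, averaged probe sets, leaving out 30% of genes by lowest mean, median centring, cyclic loess, array weights, the replicate number as a block, a linear model without moderation, and leaving out each array. Same-numbered arrays did not deviate together (r = 0.0401, 0.11 and 0.0187 across genes), so the numbers were not taken as pairs. Plots were drawn with matplotlib 3.10.9 and window identities computed with edlib in Python 3.11.15.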

Additional observations from a re-analysis of the deposited data

How the results depend on the processing

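No member passed an adjusted p under 0.05 in any of the 8 other settings or the 6 fits that leave out an array, so that count was 0 throughout. Members with a higher AP-2e null mean numbered 40 with all arrays and between 23 (without wild-type replicate 2) and 44 with an array left out. Their median difference was 0.21, between 0.18 and 0.22 in the other settings, and between -0.0170 (without wild-type replicate 2) and 0.33 with an array left out. On chromosome 13 the leave-one-out range was -0.0636 to 0.30, on chromosome 17 it was 0.25 to 0.46, for Vmn1r224 to Vmn1r232 it was 0.27 to 0.53 and for Vmn1r233 to Vmn1r237 it was 0.13 to 0.39. With array weights the chromosome 13 median was 0.11, against 0.19, and that of Vmn1r233 to Vmn1r237 was 0.13, against 0.20. Members with an unadjusted p under 0.05 numbered 6, and 0 to 12 over all settings. All genes at this p numbered 975, and 634 to 1466 over all settings. Over all genes, 50 passed the adjusted threshold. The replicate block gave 22 and the linear model without moderation 4, and leaving out an array gave 17 to 32. The block changed no call of a member.

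Of the 23 named members, 14 kept their sign in every setting. With all arrays, Vmn1r199 changed sign under median centring (-0.0217) and Vmn1r217 with array weights (-0.00547). With an array left out, the ranges that crossed 0 were -0.35 to 0.56 for Vmn1r199, -0.14 to 0.0800 for Vmn1r202, -0.34 to 0.0826 for Vmn1r204 and -0.12 to 0.0559 for Vmn1r205. They were -0.0170 to 0.21 for Vmn1r217, -0.12 to 0.25 for Vmn1r218, -0.31 to 0.77 for Vmn1r221, -0.37 to 0.19 for Vmn1r231 and -0.37 to 0.00696 for Vmn1r193. Without the dimmest 30% of genes, 36 members were left and Vmn1r188, Vmn1r204 and Vmn1r205 had no value. The causes were not tested.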
